A study of Mus musculus with 4 samples.

Results

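The ErbB receptors and their ligands were taken as a fixed list of 10 genes out of 21887 protein-coding genes in the annotation. The 4 receptors were Egfr, Erbb2, Erbb3 and Erbb4, and the 6 ligands were Nrg1, Areg, Btc, Ereg, Epgn and Hbegf. The genes were listed by family membership, with earlier results of these data known. The further ligand genes Egf, Tgfa, Nrg2, Nrg3 and Nrg4 were kept in a separate list of pathway genes. All 10 members passed the filter on low read counts in every comparison. The assay was ATAC-seq on single nuclei, in which the Tn5 transposase cuts and tags open DNA and barcodes mark the nucleus of origin. Nuclei came from mammary epithelial cells of CD1 mice, sorted as EpCAM+ and Lin-. A fetal group was collected at embryonic day 18 and an adult group at 8 weeks, with 2 biological replicates, here called libraries, in each. The labels name no mutation and no treatment in either group, and do not say how many animals made up a library.

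ErbB receptors are tyrosine kinases that signal as pairs. Areg binds Egfr, neuregulin 1 (the product of Nrg1) binds Erbb3 and Erbb4, Btc, Ereg and Hbegf can engage both Egfr and Erbb4, and Erbb2 binds no ligand of its own but pairs with the others. In the mammary gland amphiregulin, the product of Areg, is made by hormone-sensing luminal cells and acts on neighbouring cells that carry Egfr during ductal growth. Neuregulin signalling through Erbb3 and Erbb4 takes part in bud formation, luminal growth and lactation.

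The deposited files placed 7846 nuclei in 14 numbered classes, 882 and 1695 of them fetal (libraries 1 and 2) and 2465 and 2804 adult. These nuclei held 6028168 and 15801908 fetal reads and 13588107 and 19304830 adult reads, and no barcode was shared between libraries. Classes 1 and 8 were treated together as adult basal-like, since each had raised levels of all 10 basal markers listed. Classes 3 and 7 were treated as luminal progenitor-like, with 5 of 8 progenitor markers and 4 of 4 general luminal markers raised in each. Classes 2 and 11 were treated as mature luminal-like, with 7 and 5 of 8 mature luminal markers raised. The progenitor-list markers Cxcl15 and Gabrp were raised in classes 2 and 11 and not in 3 and 7. All 4 general luminal markers were also raised in classes 2 and 11, so they do not separate the 2 luminal lineages. Among fetal nuclei, class 4 was basal-like with 7 of 10 basal markers raised, and class 9 was luminal-like with 6 of 8 progenitor and 3 of 4 luminal markers raised. Class 6 had 7 of 7 stromal markers raised, neither of the 2 epithelial markers, and made up 23, 33, 82 and 75 nuclei of fetal libraries 1 and 2 and adult libraries 1 and 2. The classes were made from these same reads, so a p-value between classes describes groups drawn from the reads that are tested. It rests on 2 libraries, with a spread estimated over all sums of a fit and shared across genes. Nothing states whether the libraries came from separate animals.

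Each gene was measured as the reads over its span plus 2 kb on either side, called its window. A level is that number in RPM (the reads-per-million-reads unit) taken over the reads in all gene windows, and levels of different genes are compared only per kb of window. A normalised read count is the value entering edgeR's quasi-likelihood test, in CPM (the same unit) after TMM scaling, and a difference was called at a Benjamini-Hochberg adjusted p under 0.05 over all genes tested. Per kb of window, Erbb3 had the highest level of the 4 receptors, at 8.20 ± 0.0987 (SD, n = 2) in the fetal libraries and 8.17 ± 0.769 in the adult libraries. The promoter region nearest to Pa2g4, a neighbouring gene, drew 3603 reads against 8760 in the Erbb3 window, or 41.1%. Without that region, an alternative added after the data were seen, Erbb3 had 5.27 ± 0.0658 in fetal and 4.81 ± 0.274 in adult libraries, and Erbb2 was next among the receptors at 3.07 ± 0.192 and 3.16 ± 0.492. Among the ligands Hbegf had 3.44 ± 0.429 per kb in fetal and 5.16 ± 0.858 in adult libraries. Areg had 1.18 ± 0.197 per kb in fetal and 4.55 ± 0.0406 in adult libraries, so Hbegf was above it in the fetus, while in the adult the gap was smaller than the Hbegf spread, with 4.549 for Hbegf and 4.523 for Areg in library 2. Erbb4 and Nrg1 span the longest windows, 1081 and 1088 kb, and only 30.0% of the Erbb4 reads and 53.7% of the Nrg1 reads fell in deposited regions, a read being counted for each region it touched. In the other 8 windows that share lay between 67.7% for Egfr and 84.3% for Erbb3.

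The promoter sequences of 4 members are shown because their start sites carry the class differences described here. Areg and Egfr are a ligand and its receptor that differed in opposite directions between adult mature luminal-like and progenitor-like nuclei. At Erbb4 and Btc the adult basal-like and progenitor-like nuclei differed at the start site, while the test over the whole window did not call them. They are the RefSeq sequences of GRCm38.p6, from 250 bases before to 50 bases after the annotated start, read 5′ to 3′ along the gene. Capitals mark a match on either strand to 1 of the motifs searched.
Areg: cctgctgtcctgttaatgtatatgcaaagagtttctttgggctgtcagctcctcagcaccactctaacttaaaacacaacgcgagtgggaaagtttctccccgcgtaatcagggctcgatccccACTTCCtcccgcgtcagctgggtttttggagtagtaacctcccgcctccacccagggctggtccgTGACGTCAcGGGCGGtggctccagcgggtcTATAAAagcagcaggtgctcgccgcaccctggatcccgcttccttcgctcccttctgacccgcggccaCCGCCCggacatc
Egfr: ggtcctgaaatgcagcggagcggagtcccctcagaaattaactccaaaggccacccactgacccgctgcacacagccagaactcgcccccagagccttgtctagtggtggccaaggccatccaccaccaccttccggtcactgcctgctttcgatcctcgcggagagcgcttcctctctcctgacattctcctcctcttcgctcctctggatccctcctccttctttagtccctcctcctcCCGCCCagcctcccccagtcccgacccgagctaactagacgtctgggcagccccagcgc
Erbb4: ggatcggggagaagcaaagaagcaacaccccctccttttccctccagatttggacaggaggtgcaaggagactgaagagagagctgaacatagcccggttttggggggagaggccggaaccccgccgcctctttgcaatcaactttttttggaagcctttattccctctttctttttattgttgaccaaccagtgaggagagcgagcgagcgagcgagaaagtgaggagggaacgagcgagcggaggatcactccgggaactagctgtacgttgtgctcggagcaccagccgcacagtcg
Btc: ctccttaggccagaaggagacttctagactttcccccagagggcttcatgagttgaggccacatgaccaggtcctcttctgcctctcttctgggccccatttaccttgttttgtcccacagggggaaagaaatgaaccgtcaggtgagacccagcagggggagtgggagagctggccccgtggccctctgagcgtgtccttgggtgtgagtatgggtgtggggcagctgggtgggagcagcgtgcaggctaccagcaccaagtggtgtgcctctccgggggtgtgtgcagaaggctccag

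Areg lies at chr5:91139349-91139648 on the plus strand, Egfr at chr11:16751953-16752252 on the plus strand, Erbb4 at chr1:69108010-69108309 on the minus strand and Btc at chr5:91402945-91403244 on the minus strand. In the Areg promoter the search found the cyclic AMP response element TGACGTCA starting at position -61 from the start site, GGGCGG at -52, TATAAA at -31, and, on the opposite strand, GGAAGT at -126 and GGGCGG at 38. In the Egfr promoter it found GGGCGG on the opposite strand at -9 and none of the other motifs. The Erbb4 and Btc promoters held none of the 10 motifs searched. Of 17492 promoters of the same length, 2.34% held TGACGTCA, 46.3% held GGGCGG (the SP/KLF motif), 13.3% held TATAAA and 25.1% held GGAAGT (the ETS motif). The other motifs were TGANTCA for AP-1, AGGTCA for nuclear receptors, TGTTTAC for forkhead factors, GGAATG for TEAD, TGTGGT for RUNX and TTGGCA for NFI, in 7.08%, 14.5%, 2.94%, 13.4%, 15.1% and 13.4% of promoters. No 2 matches in the Areg promoter overlapped. The promoters held 59.3%, 62.3%, 55.3% and 60.3% G and C in Areg, Egfr, Erbb4 and Btc, with 21, 15, 17 and 5 CpG. A match describes letters only, and no factor was measured at these sites.

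**Figure D1:**
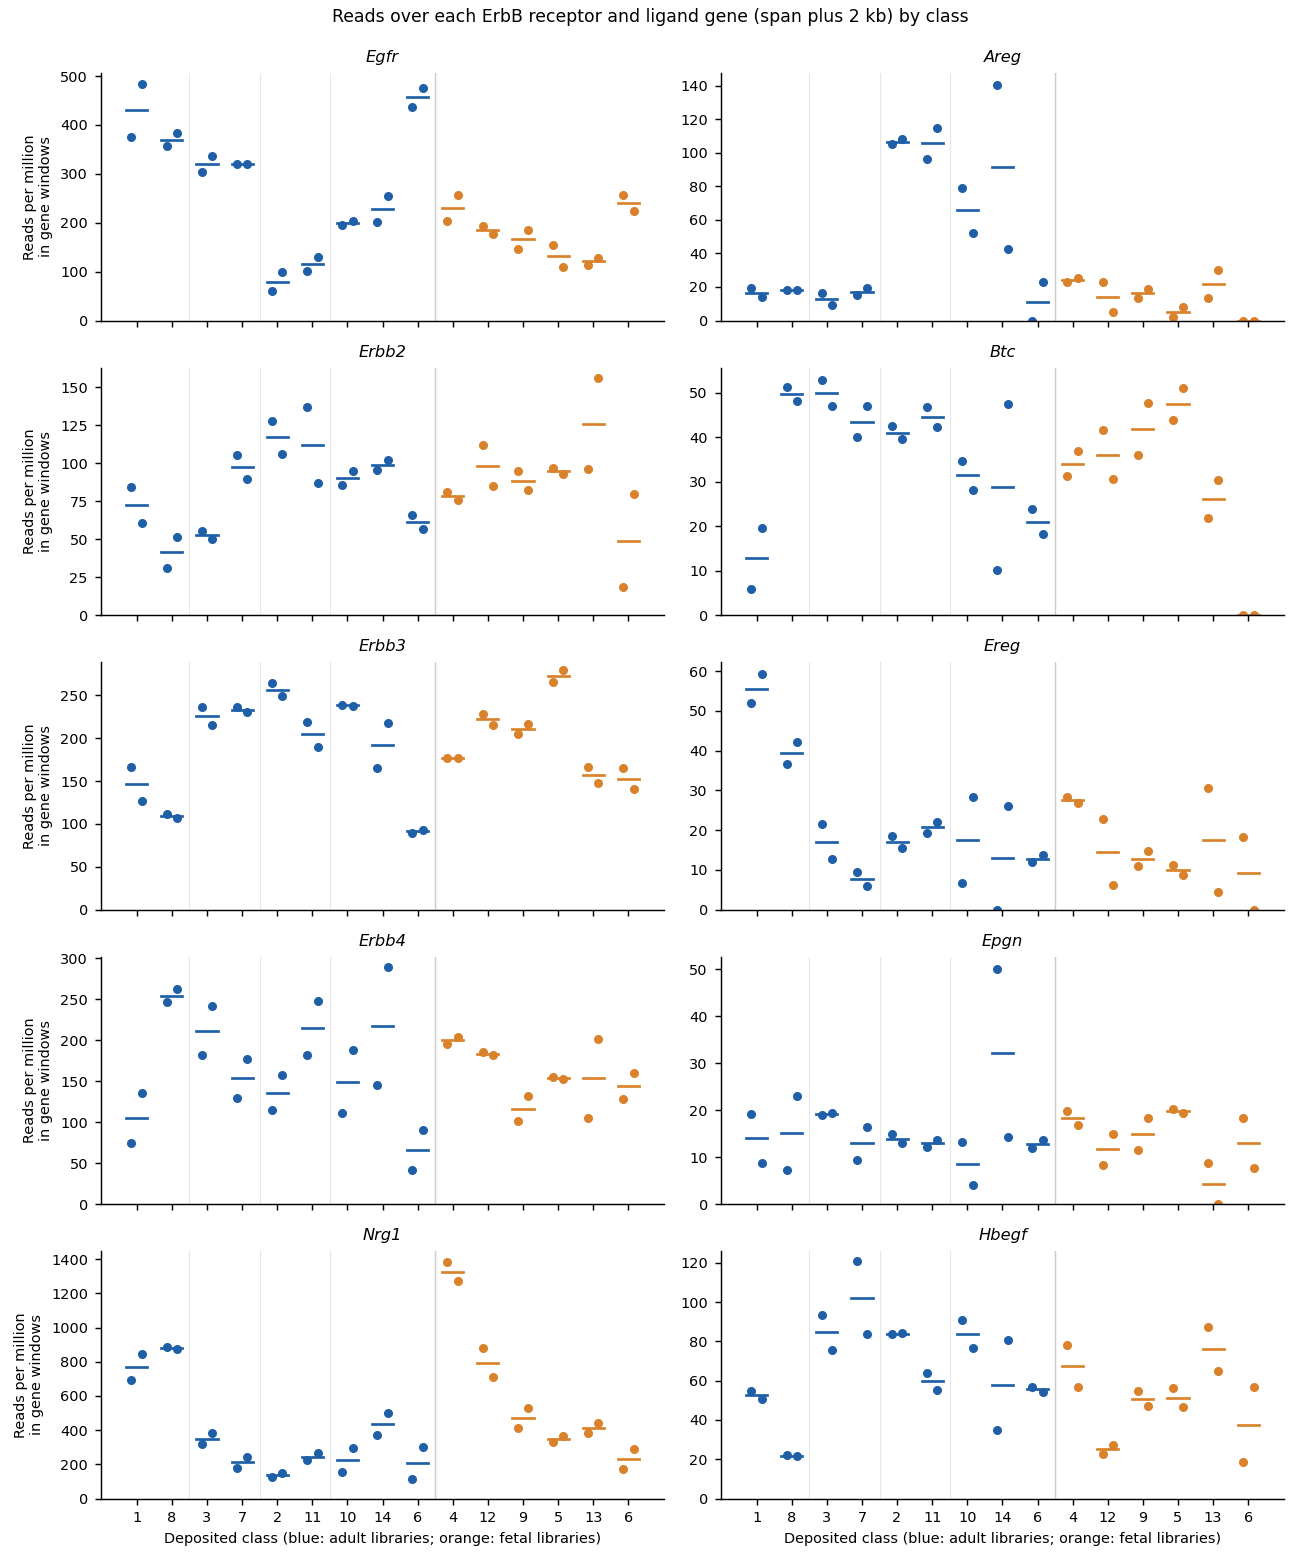
Level of each member (vertical axis, RPM of the reads in gene windows, starting at 0) in each deposited class with at least 20 nuclei in a library (horizontal axis). Points are libraries, bars their mean, blue is adult and orange fetal. Areg is highest in classes 2 and 11, where Egfr is lowest among adult classes, and Nrg1 is highest in fetal class 4.

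Among the receptors, Egfr, which binds Areg and several other ligands, had the widest range over classes. Its highest level was 457 ± 27.8 in adult class 6, the stromal-like class, followed by basal-like classes 1 and 8 at 430 ± 77.2 and 370 ± 19.7. Luminal progenitor-like classes 3 and 7 stood at 320.5 ± 23.5 and 320.2 ± 0.424, and did not differ beyond their spread. The lowest levels were in mature luminal-like classes 11 and 2, at 115 ± 20.8 and 79.7 ± 28.7. Fetal classes lay between these, from 121 ± 9.90 in class 13 to 240.4 ± 23.7 in class 6. The fetal basal-like class 4 stood at 230.3 ± 36.8 and the fetal luminal-like class 9 at 166 ± 27.2.

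Summed into adult lineages, Egfr had normalised read counts of 383 and 456 in the basal-like sums of libraries 1 and 2, 312 and 323 in the luminal progenitor-like sums, and 66.7 and 110 in the mature luminal-like sums. The 3 lineages did not overlap, with basal highest and mature luminal lowest in both libraries. Mature luminal nuclei had 3.65-fold less than progenitors (log2 -1.87, SE 0.12, adjusted p = 1.3e-23 by edgeR). Basal nuclei had 4.78-fold more than mature luminal nuclei (log2 2.26, SE 0.12, adjusted p = 4.4e-28 by edgeR). The basal excess over progenitors was 1.31-fold (log2 0.39, SE 0.11, adjusted p = 0.0045 by edgeR), but it was not called with DESeq2, with classes 8, 3 and 11 alone, or without the library as a block (adjusted p = 0.127). Within 1 kb of the start site it was -0.14. In the fetus class 4 had 209 and 266 and class 9 had 146 and 186, which did not overlap (log2 0.53, SE 0.15, adjusted p = 0.015 by edgeR). That call was lost with DESeq2, with scaling to all reads and without the flanks, and within 1 kb of the start site the difference was -0.15.

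At the Egfr start site mature luminal nuclei were again lowest. In the deposited promoter region at chr11:16751625-16752624, the values in RPM of promoter-region reads were 10.6 and 14.2 in the mature luminal-like sums, 114 and 102 in the progenitor-like sums and 90.5 and 93.8 in the basal-like sums. Mature luminal nuclei stood below progenitors there by a log2 change of -3.11 (SE 0.30, adjusted p = 5.1e-11 by edgeR), and the basal and progenitor levels at this region did not pass the test (log2 -0.22, adjusted p = 0.67). The fetal classes 4 and 9 were alike in value at 74.2 and 82.0, and 75.1 and 78.7, with a log2 difference of 0.06 (SE 0.36). Of 20 tested distal regions assigned to Egfr, 11 were lower and 2 higher in mature luminal nuclei than in progenitors, where 19.9% of all distal regions were lower and 20.9% higher, 40.8% in all. At promoter regions 10.4% of the genome's set differed in this comparison.

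Inside the Egfr gene, 1 region was highest in basal nuclei and another had its highest values in progenitors. The region at chr11:16800125-16801124, 48.4 kb into the gene, had 58.9 and 82.9 RPM of distal-region reads in basal-like sums, 36.1 and 20.5 in progenitor-like sums, and 4.06 and 4.73 in mature luminal-like sums. Basal nuclei exceeded progenitors there by 1.36 on the log2 scale (SE 0.35, adjusted p = 0.0029 by edgeR). The region at chr11:16759607-16760606, 7.90 kb into the gene, was highest in progenitors at 37.6 and 41.5, with 25.9 and 15.5 in basal and 0.811 and 1.78 in mature luminal sums, though basal and progenitor nuclei did not pass the test there (adjusted p = 0.088). Both regions were therefore low in mature luminal nuclei, and the first was also the end of the Egfr links of highest co-accessibility described below.

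Not every Egfr region closed with the gene in mature luminal nuclei. The region at chr11:16873910-16874909, 122 kb into the gene, had 49 and 81 reads in the mature luminal-like sums, 1 and 5 in the progenitor-like sums and 0 and 2 in the basal-like sums (log2 3.96 over progenitors, SE 0.77, adjusted p = 4.1e-05 by edgeR). A region 14.7 kb before the gene, at chr11:16736993-16737992, had 32 and 63 reads in mature luminal sums, 10 and 2 in progenitor sums and 0 in both basal sums. Against a floor of 3 reads over the basal group, the mature luminal level at this region was at least 12.5-fold higher. This bound and the later ones count reads, and both ends of a fragment may be listed as separate reads. The regions at 16873910 and 16736993 were the 2 Egfr regions called higher in mature luminal nuclei. Both passed the filter on reads through those nuclei, so their direction is partly built in.

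**Figure D2:**
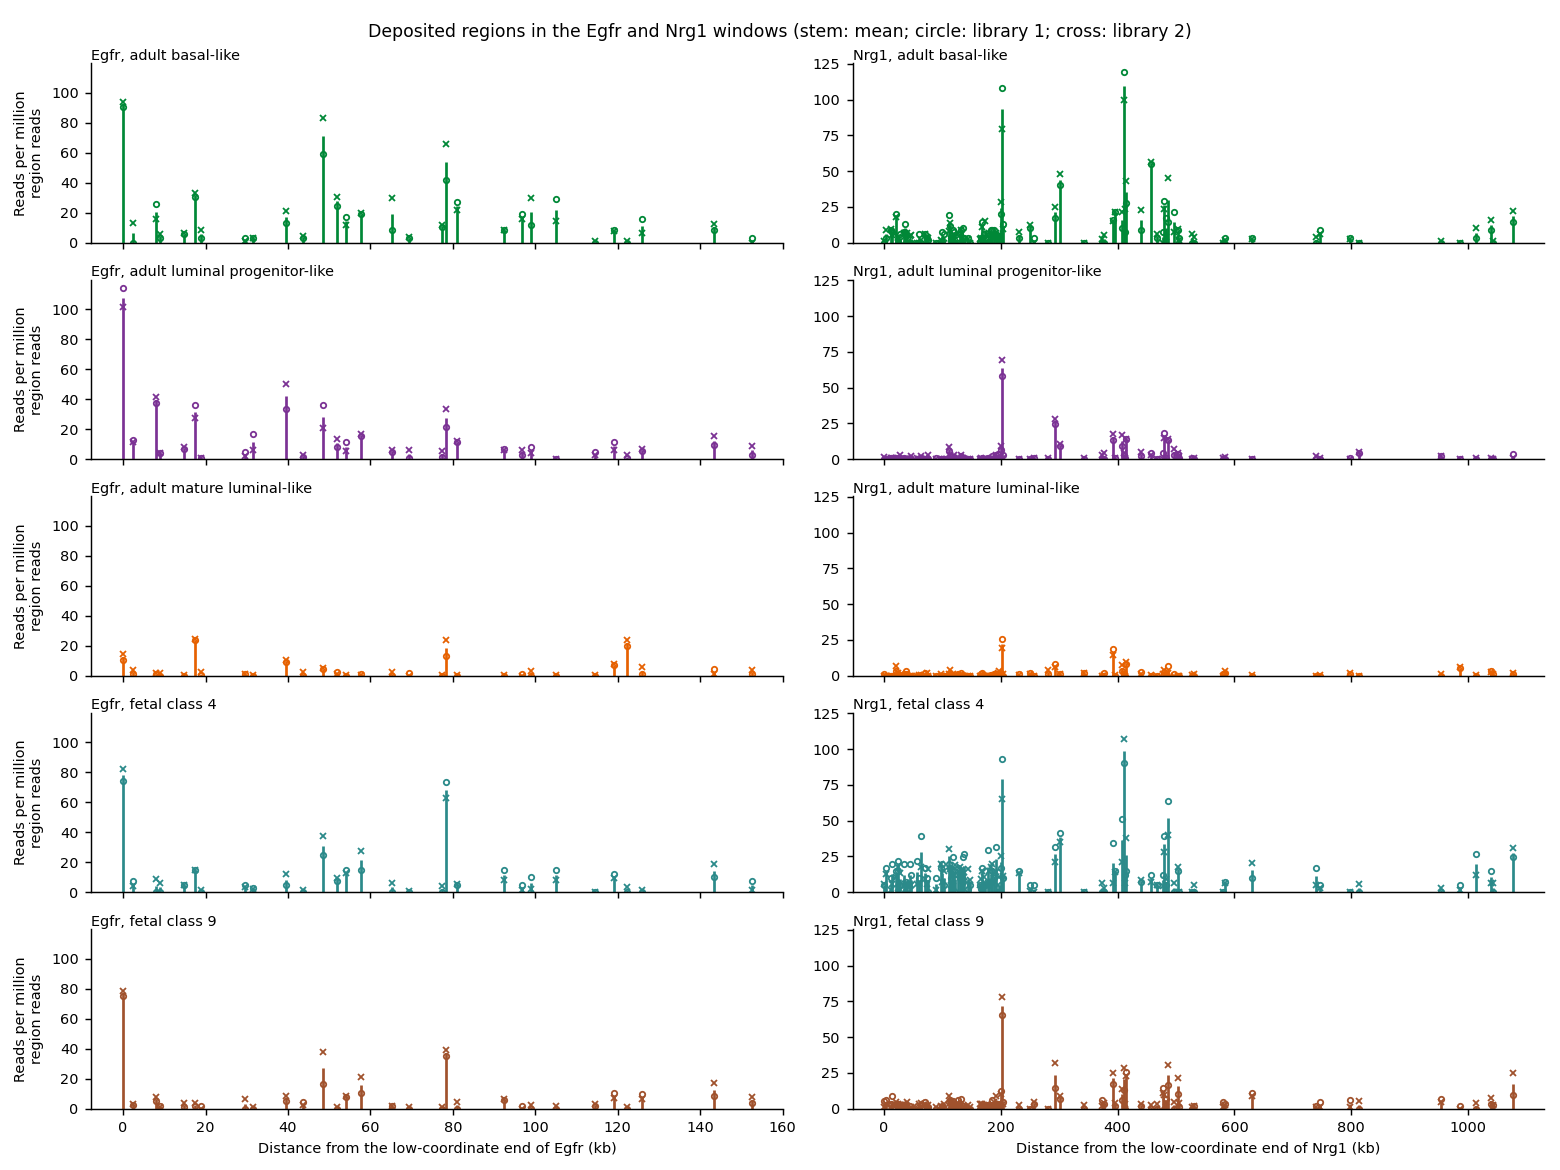
RPM of the reads in distal or promoter regions (vertical axis) at each deposited region in the Egfr and Nrg1 windows, by distance in kb from the end of the gene with the lower coordinate (horizontal axis). Stems are means of 2 libraries, circles library 1 and crosses library 2. The Egfr start site stands near 12 in mature luminal nuclei and between 74.2 and 114 in the other 4 groups, and the Nrg1 region at 412 kb is tall in adult basal and fetal class 4 nuclei.

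Erbb2, the receptor with no ligand of its own, varied less than Egfr. Normalised read counts were 127 and 97.6 in mature luminal-like, 88.1 and 70.1 in progenitor-like and 63.5 and 58.6 in basal-like sums. The groups did not overlap, and mature luminal was highest in both libraries. Basal nuclei had 1.80-fold less than mature luminal nuclei (log2 -0.85, SE 0.16, adjusted p = 6.2e-06 by edgeR), but within 1 kb of the start site the difference was -0.069 and not called (adjusted p = 0.89). The mature luminal excess over progenitors, 1.41-fold (log2 0.50, SE 0.14, adjusted p = 0.0035 by edgeR), was lost under 4 of the alternatives, among them the fit without the library block (adjusted p = 0.057). Class levels ran from 126 ± 42.2 in fetal class 13 and 117 ± 15.1 in adult class 2 down to 41.3 ± 14.2 in adult class 8, with most neighbours in this order within their spread.

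No difference was called at the Erbb2 start site. At chr11:98411847-98412846 the levels were 60.4 and 61.4 in basal, 51.0 and 54.1 in progenitor and 73.3 and 52.4 in mature luminal sums, and neither comparison with progenitors passed the test (adjusted p = 0.72 for mature luminal and 0.71 for basal, by edgeR). Distal regions 3.20 and 21.4 kb into the gene did differ. They had 33 and 41, and 24 and 49, reads in mature luminal sums, against 6 and 2, and 0 and 6, in progenitors. Both were called higher in mature luminal nuclei (log2 2.77 and 3.26, SE 0.92 and 1.03, adjusted p = 0.013 and 0.0087 by edgeR). They were 2 of 3 Erbb2 distal regions tested, where 40.8% of all distal regions differed, 20.9% higher and 19.9% lower. Both passed the filter on reads through mature luminal nuclei, so their direction is partly built in. Basal sums had 0 reads at both, which makes the mature luminal level at least 9.75-fold and 9.62-fold higher against a floor of 3 reads over the basal group. The Erbb2 window also takes in Mien1, whose reads cannot be separated where the genes meet.

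Erbb3, the kinase-impaired receptor for neuregulins, was higher in the adult luminal lineages than in adult basal nuclei. Its highest level was 273 ± 9.55 in fetal class 5, a fetal class with 2 of 4 luminal and 5 of 8 progenitor markers raised. Adult class 2 followed at 257 ± 10.7. Among the other fetal classes, class 12, with 0 of 4 luminal and 3 of 10 basal markers raised, had 222 ± 9.26, above the luminal-like class 9 at 211 ± 8.42. The basal-like class 4 had 177 ± 0.566, and the test between classes 4 and 9 was not called (log2 -0.21, SE 0.13, adjusted p = 0.46 by edgeR). The lowest were basal-like classes 1 and 8 at 146 ± 28.3 and 110 ± 3.25 and the stromal-like adult class 6 at 91.4 ± 2.26. In adult lineage sums the normalised read counts were 148 and 122 in basal, 235 and 220 in progenitor, and 248 and 224 in mature luminal nuclei. Basal nuclei were below both luminal lineages in both libraries, while the luminal lineages overlapped each other. Basal nuclei had 1.70-fold less than progenitors (log2 -0.76, SE 0.12, adjusted p = 3.5e-07 by edgeR) and 1.76-fold less than mature luminal nuclei (log2 -0.81, SE 0.12, adjusted p = 3.0e-08). The mature luminal and progenitor values differed by 0.05 on the log2 scale (SE 0.11).

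Of 3 Erbb3 distal regions tested between mature luminal nuclei and progenitors, 1 was called, and it was higher in mature luminal nuclei. That count is near the 40.8% of all distal regions that differed, 20.9% higher and 19.9% lower. At chr10:128567647-128568646, inside the gene, 72 and 98 reads fell in the mature luminal sums, 8 and 7 in the progenitor sums and 0 in both basal sums. The excess over progenitors was 3.01 on the log2 scale (SE 0.59, adjusted p = 5.1e-05 by edgeR), and over basal nuclei it was at least 22.4-fold against a floor of 3 reads. This region passed the filter on reads through mature luminal nuclei, so its direction is partly built in. The same region was lower in all fetal nuclei, at 6 and 11 reads, than in all adult nuclei, at 91 and 114 (log2 -2.94, SE 0.43, adjusted p = 1.1e-06). At chr10:128583996-128584995 basal sums had 21 and 31 reads and progenitor sums 110 and 111 (log2 -1.21, SE 0.33, adjusted p = 0.0043). Another Erbb3 region, at chr10:128586672-128587671, was a fetal one, with 27.8 and 25.5 normalised reads in all fetal nuclei and 9.30 and 10.9 in all adult nuclei (log2 1.39, SE 0.27, adjusted p = 0.00010 by edgeR). The Erbb3 window overlaps Pa2g4, and its normalised read counts include the reads at the promoter of that gene. That promoter region was not called between basal nuclei and progenitors (log2 -0.30, SE 0.16, adjusted p = 0.23 by edgeR) and was lower in basal than in mature luminal nuclei (log2 -0.42, SE 0.15, adjusted p = 0.045).

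Erbb4, which binds neuregulins, Btc and Hbegf, gave different answers at its start site and along its length. Over the whole window the normalised read counts overlapped in all 3 adult comparisons, at 158 and 201 in basal, 146 and 204 in progenitor and 126 and 188 in mature luminal sums, with library 2 above library 1 in each lineage. No adult difference was called (log2 0.03 for basal over progenitor, SE 0.12). Single regions did differ. At chr1:68438265-68439264, inside the gene, the mature luminal sums had 40 and 44 reads, both progenitor sums 0 and the basal sums 0 and 2, which puts the mature luminal level at least 19.4-fold above progenitors (3 reads over the group as floor, adjusted p = 5.3e-05 by edgeR). It was the 1 called of 3 Erbb4 distal regions tested in this comparison, where 40.8% of all distal regions differed. Of 17 distal regions assigned to Erbb4 only these 3 had enough reads, and this region had almost all of them from mature luminal nuclei. At the promoter region chr1:69106253-69107252, however, basal sums had 30.2 and 33.6 RPM of promoter-region reads, progenitor sums 104 and 113 and mature luminal sums 76.9 and 70.1. Basal nuclei were lower than progenitors there by a log2 change of -1.74 (SE 0.29, adjusted p = 3.8e-05 by edgeR). The neighbouring promoter region at chr1:69108000-69108999, which contains the sequence shown, was lower in basal nuclei by -1.24 (SE 0.38, adjusted p = 0.026).

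The Erbb4 window differed between the 2 classes of each adult lineage. Class 8 had an Erbb4 level of 254 ± 11.95 and class 1 stood at 105 ± 43.4, although both had all 10 basal markers raised. The small class 14, at 217.4 ± 101.7, did not differ from class 8 beyond its spread and was above it in library 2. The same held in the luminal lineages, with 212 ± 42.9 in class 3 against 153 ± 33.4 in class 7, and 215 ± 46.5 in class 11 against 136 ± 30.4 in class 2, the first of each pair being higher in both libraries. Classes 8, 3 and 11 also had fewer of their reads in deposited promoter regions, at 18.9%, 21.4% and 21.1% in library 1 and 17.5%, 20.9% and 18.6% in library 2, against 25.8%, 27.7% and 25.7%, and 25.5%, 26.4% and 23.3%, in classes 1, 7 and 2. The part of this in the Erbb4 difference was not tested. Nrg1 was also higher in class 8 than 1, 3 than 7 and 11 than 2 in both libraries. With adult lineages drawn from classes 1, 7 and 2 alone, chosen after the data were seen, basal nuclei were lower than progenitors by a log2 change of -0.47 (adjusted p = 0.038 by edgeR), the opposite sign to the pooled lineages. In fetal nuclei, class 4 had 201 and 212 normalised reads over Erbb4 and class 9 had 101 and 132, a 1.76-fold difference (log2 0.81, SE 0.15, adjusted p = 7.7e-05 by edgeR). Within 1 kb of the start site that fetal difference was 0.0048 on the log2 scale. Of 4 Erbb4 regions tested between these classes 0 were called, where 2.82% of all distal and 0.0556% of all promoter regions were. Class 4 had 20.8% and 19.2% of its reads in promoter regions and class 9 had 24.4% and 22.5%. The part of this in the fetal Erbb4 difference was not tested.

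Turning to the ligands, Areg was open in the mature luminal-like nuclei and low in the other large classes. Levels were 107 ± 2.33 in class 2 and 106 ± 13.05 in class 11, which did not differ beyond their spread. The small adult classes 14 and 10 followed at 91.6 ± 69.2 and 65.8 ± 18.9, with 5 and 4 of 8 mature luminal markers raised, beside 6 of 10 basal markers in class 14 and 5 of 8 progenitor markers in class 10. In adult libraries 1 and 2 the median reads per nucleus were 7571 and 8412 in class 14 and 8340.5 and 10406 in class 10, against 4420 and 5457.5 over all nuclei. Doublets, barcodes that hold more than 1 nucleus, were not searched for, and their part in these classes was not tested. Every other class with a value lay at or below 24.1 ± 2.02, the level of fetal class 4. Adult lineage sums had normalised read counts of 101 and 109 in mature luminal, 15.5 and 14.5 in progenitor and 19.7 and 16.5 in basal nuclei.

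The Areg values in mature luminal nuclei were above every progenitor and basal value. The excess was 7.01-fold over progenitors (log2 2.81, SE 0.19, adjusted p = 3.6e-21 by edgeR) and 5.96-fold over basal nuclei (adjusted p = 1.6e-17). Basal and progenitor nuclei differed by 0.23 on the log2 scale (SE 0.27), which was not called. The direction for Areg is thus opposite to that for Egfr, whose reads were fewest in the same nuclei. Across the 30 sums of a class in a library the correlation of Areg with Egfr was -0.39, over points that share libraries and depth. The correlation of Egfr with the receptors Erbb3 (-0.60) and Erbb2 (-0.59) was more negative, so a negative correlation over these sums was not particular to this ligand. These sums also take in basal, stromal and fetal classes. Between mature luminal nuclei and progenitors alone, Erbb3 was not called (log2 0.05). Erbb2 was higher there by 0.50 on the log2 scale, a call lost under 4 alternatives.

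At the Areg start site, chr5:91139085-91140084, levels were 76.2 and 86.0 in mature luminal sums, 22.6 and 27.1 in progenitor sums and 32.9 and 26.6 in basal sums. This region holds the sequence shown with the TGACGTCA and TATAAA matches. The mature luminal excess over progenitors was 1.69 on the log2 scale (SE 0.31, adjusted p = 1.0e-04 by edgeR), smaller than over the whole window. A larger contrast lay past the far end of the gene. At chr5:91149461-91150460, 1.53 kb beyond the span, 102 and 91 reads fell in the mature luminal sums and 0 and 2 in the progenitor sums, and both basal sums had 0, which puts the mature luminal level at least 25.4-fold above basal (3 reads over the group as floor). Of 15 distal regions assigned to Areg, 7 had enough reads to be tested. All 6 of those called in this comparison were higher in mature luminal nuclei, and none was lower. Over all distal regions 40.8% differed, 20.9% higher and 19.9% lower. The region past the gene passed the filter on reads through mature luminal nuclei, so a count in a single direction is partly built in. DESeq2 called 3 of the 7, all higher.

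**Figure D3:**
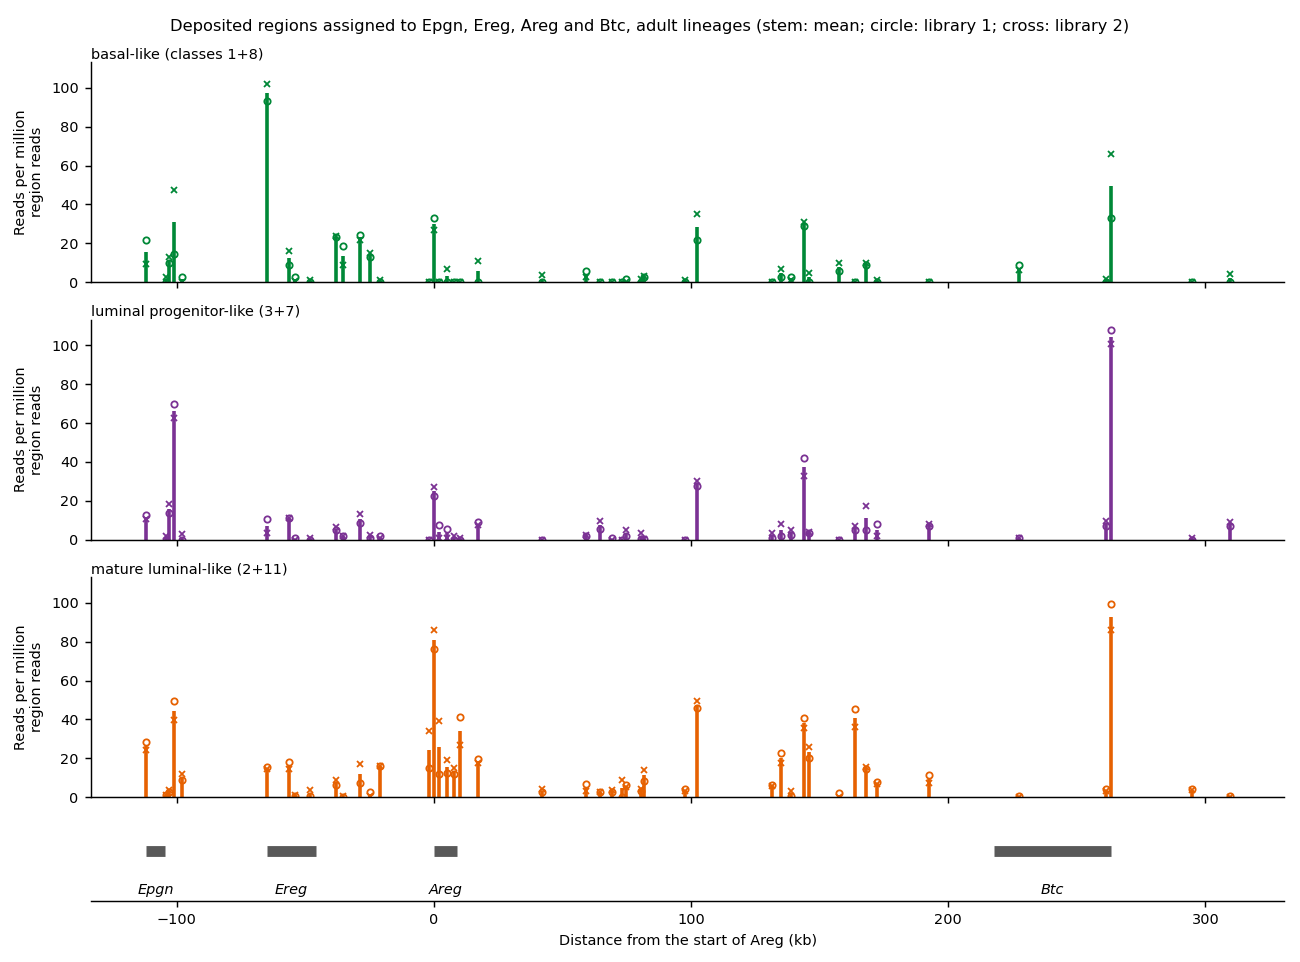
RPM of the reads in distal or promoter regions (vertical axis) at deposited regions assigned to Epgn, Ereg, Areg and Btc, by distance in kb from the start of Areg (horizontal axis), in 3 adult lineages. Stems are means of 2 libraries, circles library 1 and crosses library 2. Mature luminal nuclei have tall stems at Areg and at 164 kb, basal nuclei at the Ereg start site, and both luminal lineages at the Btc start site.

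Areg is 1 of 4 ligand genes in a row on chromosome 5, in the order Epgn, Ereg, Areg, Btc, and the 4 did not open together. Ereg, which encodes epiregulin, was a basal gene in the adult. Its levels were 55.6 ± 5.22 in class 1 and 39.4 ± 3.85 in class 8, then 27.6 ± 1.04 in fetal class 4, and 20.7 ± 1.92 or less in every other class. Normalised read counts were 47.2 and 53.6 in basal, 13.3 and 8.90 in progenitor and 18.3 and 17.7 in mature luminal sums. Basal nuclei had 4.64-fold more than progenitors (log2 2.21, SE 0.28, adjusted p = 6.4e-10 by edgeR) and 2.84-fold more than mature luminal nuclei (adjusted p = 1.1e-06), although the second call was lost with classes 8, 3 and 11 alone (log2 1.03, adjusted p = 0.074). Mature luminal nuclei also exceeded progenitors (log2 0.71, SE 0.28, adjusted p = 0.049), a call that was lost under 4 of the alternatives, among them the fit without the library block (adjusted p = 0.0888).

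The Ereg promoter region at chr5:91074212-91075211 showed the same basal excess. Values in RPM of promoter-region reads were 93.3 and 102 in basal, 10.9 and 3.28 in progenitor and 15.5 and 14.2 in mature luminal sums. The basal excess over progenitors was 3.82 on the log2 scale (SE 0.47, adjusted p = 8.1e-08 by edgeR), when 10.9% of all promoter regions differed in that comparison, 816 higher and 785 lower, or 619 and 1212 when scaled to all reads of the nuclei. Fetal class 4 had 39.6 and 35.1 there and fetal class 9 had 11.6 and 23.4, a difference that did not pass the test (adjusted p = 0.85). Of 12580 promoter regions tested between those fetal classes, only 7 did, or 0.0556%, 3 higher and 4 lower, against 3 and 16 when scaled to all reads and 6 and 2 with DESeq2. With age, over all nuclei, 1 Ereg distal region was called in each direction of 5 tested, where 35.3% of all distal regions differed. The one at chr5:91082617-91083616, inside the gene, had 8.98 and 5.33 normalised reads in fetal and 13.9 and 13.2 in adult nuclei (log2 -1.01, SE 0.36, adjusted p = 0.027 by edgeR). The one at chr5:91114132-91115131, beyond the gene, had 16.3 and 17.0 in fetal and 4.20 and 4.58 in adult nuclei (log2 1.91, SE 0.36, adjusted p = 4.8e-05).

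Btc, the gene for betacellulin, was not called over its window, but its levels ranged widely over classes. It was highest in class 3 at 49.98 ± 4.26 and in class 8 at 49.8 ± 2.20, and lowest among the large classes in class 1 at 12.8 ± 9.64, so that the 2 adult basal-like classes stood far apart. Adult lineage sums had normalised read counts of 27.5 and 33.8 in basal, 43.9 and 46.3 in progenitor and 42.4 and 40.0 in mature luminal nuclei. Basal nuclei were lowest in both libraries, by a log2 change of -0.53 against progenitors (SE 0.22, adjusted p = 0.065 by edgeR) and -0.40 against mature luminal nuclei (SE 0.22, adjusted p = 0.15). These 2 differences were called when scaled to all reads (log2 -0.66 and -0.52, adjusted p = 0.016 and 0.047), within 1 kb of the start site (log2 -0.91 and -0.81, adjusted p = 0.0090 and 0.014) and with classes 1, 7 and 2 alone (log2 -1.53 and -1.44, adjusted p = 0.0017 and 0.0018, all by edgeR). The Btc promoter region at chr5:91402364-91403363 had 32.9 and 66.0 in basal sums, 108 and 101 in progenitor sums and 99.4 and 86.0 in mature luminal sums. It was lower in basal nuclei than in progenitors (log2 -0.94, SE 0.27, adjusted p = 0.016 by edgeR), and mature luminal nuclei and progenitors did not pass the test there (adjusted p = 0.70).

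The regions nearest to Btc included some that opened as Areg did. At chr5:91302958-91303957, 53.8 kb outside the Btc span and 164 kb from the start of Areg, there were 112 and 122 reads in mature luminal, 10 and 14 in progenitor and 0 in both basal sums. The mature luminal excess over progenitors was 2.81 on the log2 scale (SE 0.49, adjusted p = 8.4e-06 by edgeR), and over basal nuclei it was at least 30.8-fold (floor of 3 reads over the group). This region passed the filter on reads through mature luminal nuclei, so its direction is partly built in. The region at chr5:91284987-91285986 had 50 and 88 reads in mature luminal and 7 and 8 in progenitor sums (log2 2.68, SE 0.64, adjusted p = 0.00058), and was lower in fetal than in adult nuclei (log2 -1.61, SE 0.39, adjusted p = 0.0012). In all, 3 of 7 tested distal regions assigned to Btc were higher in mature luminal nuclei and none was lower, a count near the 40.8% of all distal regions that differed in this comparison, 20.9% higher and 19.9% lower. In fetal nuclei 1 distal region of Btc, at chr5:91448700-91449699, was open in class 9 with 22 and 59 reads and had 0 and 4 in class 4 (log2 -3.01, SE 0.84, adjusted p = 0.043), where 2.82% of all distal regions differed, 1.51% higher and 1.31% lower in class 4.

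Epgn, the gene for epigen, had the fewest reads of the members. Its levels lay between 4.38 ± 6.19 in fetal class 13 and 32.2 ± 25.4 in adult class 14, with most neighbouring classes within their spread, and no window test was called. Of its 3 distal regions tested in adult nuclei, 1 was higher and 1 lower in mature luminal nuclei than in progenitors, where 40.8% of all distal regions differed, 20.9% higher and 19.9% lower. The lower one, at chr5:91036240-91037239, had 6 and 12 reads against 27 and 38 (log2 -2.35, SE 0.65, adjusted p = 0.0028 by edgeR). Another, at chr5:91038195-91039194, had 16.2 and 66.0 normalised reads in basal and 88.0 and 79.1 in progenitor sums (log2 -0.95, SE 0.34, adjusted p = 0.031 by edgeR). The gap lay mostly in library 1. It was the 1 called of 3 Epgn distal regions tested between these lineages, where 25.4% of all distal regions differed.

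Over its window Nrg1, the ligand for Erbb3 and Erbb4, was open in basal-like nuclei at both ages. Its only promoter region had too few reads to be tested between classes. Its highest level was 1328 ± 78.5 in fetal class 4, beyond the spread of the next class, adult class 8 at 881 ± 10.4. Fetal class 12 (795 ± 122) and adult class 1 (768 ± 108) followed, and the lowest level was 135 ± 16.7 in adult class 2. Normalised read counts in adult lineage sums were 815 and 891 in basal, 223 and 304 in progenitor and 142 and 188 in mature luminal nuclei, with no overlap. Basal nuclei had 3.26-fold more than progenitors (log2 1.71, SE 0.10, adjusted p = 7.4e-25 by edgeR) and 5.20-fold more than mature luminal nuclei. Mature luminal nuclei had 1.60-fold less than progenitors (log2 -0.67, SE 0.10, adjusted p = 5.4e-08).

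The same order held in the fetus for Nrg1. Class 4 had 1417 and 1322 normalised reads and class 9 had 410 and 530, a 2.90-fold difference (log2 1.54, SE 0.10, adjusted p = 2.2e-21 by edgeR). Class 4 also had fewer of its reads in promoter regions than class 9, and the part of this in the Nrg1 difference was not tested. At the region chr8:32218549-32219548, inside the gene, the 2 adult basal-like sums had 119 and 99.6 RPM of distal-region reads and fetal class 4 had 90.5 and 107. Progenitor sums had 3.01 and 4.39, mature luminal sums 0.811 and 1.18, and fetal class 9 had 12.9 and 28.4. Basal nuclei exceeded progenitors by 4.84 on the log2 scale (SE 0.42, adjusted p = 6.9e-12 by edgeR) and class 4 exceeded class 9 by 2.31 (SE 0.37, adjusted p = 0.00048).

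Nearby, another Nrg1 region was an adult basal one. At chr8:32264383-32265382 adult basal sums had 54.6 and 56.3, progenitor sums 4.01 and 2.93, and fetal class 4 had 12.2 and 7.05. This was the only Nrg1 region called lower in fetal than in adult nuclei as a whole (log2 -1.42, SE 0.41, adjusted p = 0.0059 by edgeR). Of 98 distal regions assigned to Nrg1, 16 had enough reads to be tested in the adult. Of these, 7 were higher and none lower in basal nuclei than in progenitors. Over all distal regions 25.4% differed there, 10.5% higher and 14.8% lower. The region at 32218549 passed the filter on reads through basal nuclei, so a count in a single direction is partly built in. None of the 16 was higher and 8 were lower in mature luminal nuclei than in progenitors, where 40.8% of all distal regions differed, 20.9% higher and 19.9% lower. One of the 8, at chr8:32009089-32010088, had 63 and 65 reads in mature luminal and 116 and 142 in progenitor sums (log2 -1.47, SE 0.28, adjusted p = 2.3e-05).

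Hbegf, the gene for heparin-binding EGF-like growth factor at chr18:36504927-36515805, was higher in the adult luminal lineages than in adult basal nuclei. Levels were 102 ± 26.1 in class 7, 84.6 ± 12.6 in class 3, 83.9 ± 0.368 in class 2 and 59.8 ± 6.02 in class 11. The basal-like class 1 stood at 52.7 ± 3.13, close to class 11, and the lowest level was 21.7 ± 0.403 in basal-like class 8. Normalised read counts were 111 and 78.8 in progenitor, 77.4 and 72.4 in mature luminal and 42.0 and 38.8 in basal sums. Basal nuclei were lowest in both libraries. They had 2.30-fold less than progenitors (log2 -1.20, SE 0.18, adjusted p = 7.2e-08 by edgeR) and 1.83-fold less than mature luminal nuclei (log2 -0.88, SE 0.18, adjusted p = 3.7e-05). Of its 2 promoter regions both were lower in basal nuclei than in progenitors (log2 -0.95 and -1.005, SE 0.27 and 0.24, adjusted p = 0.015 and 0.0035 by edgeR), where 10.9% of all promoter regions differed. A distal region at chr18:36491756-36492755 was lower in mature luminal nuclei than in progenitors (log2 -1.03, SE 0.28, adjusted p = 0.0025).

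Counted over the list, 5 of 10 members differed between mature luminal nuclei and progenitors, 3 higher and 2 lower, where 27.5% of 17406 genes did, 13.9% higher and 13.7% lower. The same number, again 3 higher and 2 lower, differed between basal nuclei and progenitors, against 27.3% of all genes, 15.0% higher and 12.3% lower. Between basal and mature luminal nuclei 7 differed, 3 higher and 4 lower, against 37.6%, 19.4% higher and 18.2% lower. In the fetus 3 members were higher in class 4 than in class 9 and none lower, against 6.03%, 4.15% higher and 1.89% lower. The median log2 change over the 10 members was -0.14, 0.02, -0.11 and 0.48 in these 4 comparisons, and over all genes it was 0.00, 0.00, -0.01 and -0.02. The balance over all genes depended on the scaling wherever basal nuclei were compared. Scaled to all reads of the nuclei, 2043 genes were higher and 3257 lower in basal nuclei than in progenitors, against 2603 and 2147 with TMM. Between basal and mature luminal nuclei the numbers were 2703 and 4228, against 3369 and 3175, and between fetal classes 4 and 9 they were 399 and 661, against 690 and 314. The median over all genes moved to -0.13, -0.14 and -0.15 in these 3 comparisons. The members called under that scaling were 3 higher and 4 lower, 3 higher and 5 lower, and 2 higher and 0 lower. The members were chosen with earlier results of these data known, so these shares describe the list and are no evidence about it.

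**Figure D4:**
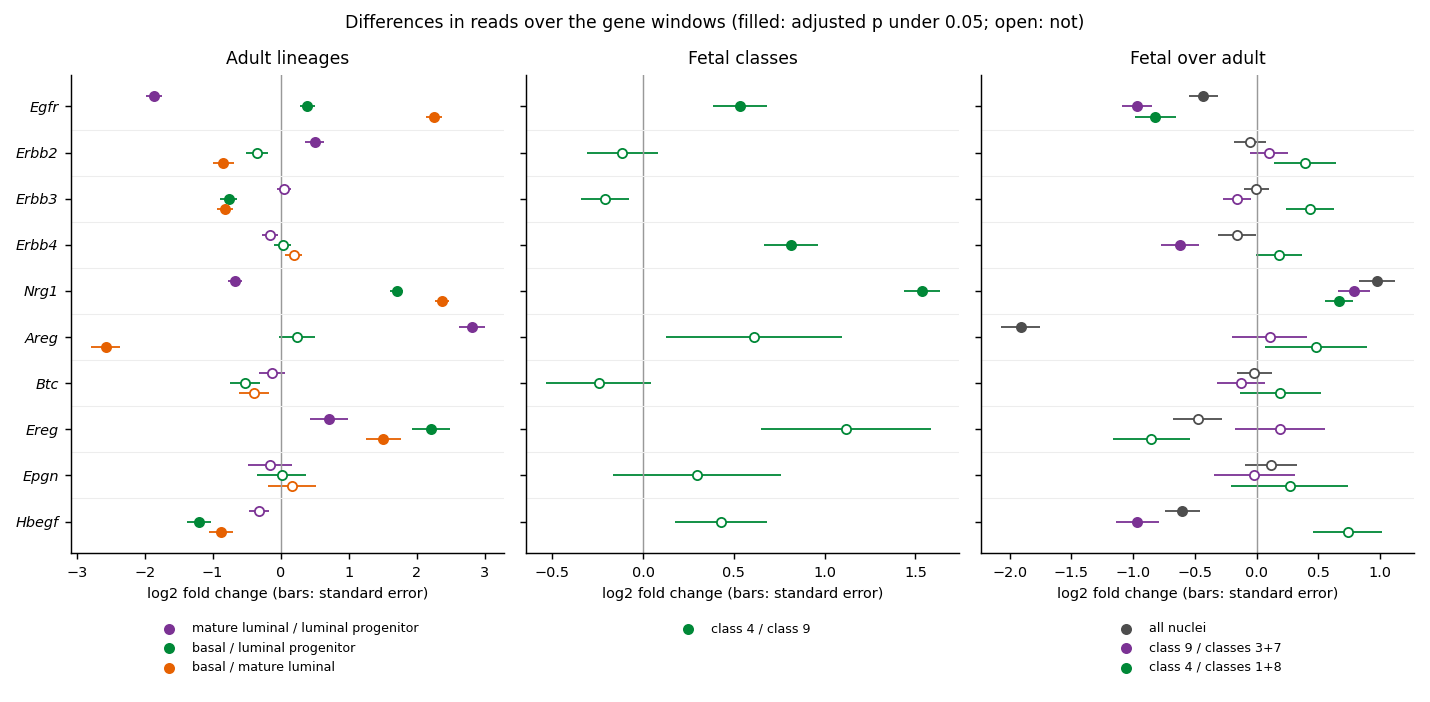
Log2 fold change of each member window (horizontal axis, bars 1 standard error from the edgeR fit) between adult lineages, between fetal classes 4 and 9, and between fetal and adult nuclei. Filled points had an adjusted p under 0.05. Areg and Egfr lie on opposite sides in the mature luminal comparisons, and Nrg1 is above 0 wherever basal or fetal nuclei are the numerator.

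Fetal and adult nuclei were compared first over all nuclei of a library. Nrg1 was higher in the fetus, with 583 and 654 normalised reads against 250.3 and 378 in the adult (1.97-fold, log2 0.98, SE 0.14, adjusted p = 0.00043 by edgeR). Areg was lower, with 13.3 and 17.0 against 58.9 and 58.4 (3.77-fold less, log2 -1.91, SE 0.16, adjusted p = 8.5e-06). Egfr was lower at 162.9 and 183 against 210 and 257 (log2 -0.43, SE 0.12, adjusted p = 0.018), and Hbegf at 55.4 and 46.8 against 85.9 and 68.1 (log2 -0.60, SE 0.14, adjusted p = 0.0091). No other member was called. Over all genes 22.2% were called, 11.3% higher and 10.9% lower. Without fetal library 2 only Nrg1 and Areg were called, which left 2 members, while the share of all genes called fell to 9.68%. The Egfr call was also lost without fetal library 1 and without adult library 2, and within 1 kb of its start site the change was 0.24 (adjusted p = 0.24).

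The classes present at the 2 ages differed. Of adult libraries 1 and 2, 40.7% and 38.3% were mature luminal-like, against 0.340% and 0.413% of fetal libraries 1 and 2, which is 10 fetal nuclei in all. The part of this difference in the Areg change over all nuclei was not tested. Among fetal class 9 and adult progenitor-like nuclei, Areg had 13.5 and 18.8 against 15.9 and 14.9 normalised reads, which overlapped (log2 0.11, SE 0.31). Among basal-like nuclei it had 22.6 and 25.6 in the fetus and 19.2 and 16.2 in the adult, a difference that was not called (log2 0.48, SE 0.41, adjusted p = 0.57 by edgeR).

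Egfr and Nrg1 differed with age within both lineages. Egfr was lower in fetal class 9 than in adult progenitors, with 145 and 185 against 320.3 and 332 (log2 -0.97, SE 0.12, adjusted p = 9.3e-06 by edgeR), and lower in fetal class 4 than in adult basal nuclei, with 204 and 257 against 373 and 447 (log2 -0.82, SE 0.16, adjusted p = 0.0010). Within 1 kb of its start site the Egfr change was -0.49 among progenitor-like nuclei and was no longer called (adjusted p = 0.068). Among basal-like nuclei the Egfr call was also lost there (-0.50, adjusted p = 0.51) and with class 8 alone (-0.73, adjusted p = 0.068). Nrg1 was higher in fetal nuclei, by 0.79 (SE 0.13, adjusted p = 0.00024) among progenitor-like and by 0.67 (SE 0.11, adjusted p = 0.00014) among basal-like nuclei, and the first was not called with DESeq2 at the same size (0.79, adjusted p = 0.062), nor the second with class 8 alone (0.53, adjusted p = 0.055 by edgeR). Of 10 members, 4 were called among progenitor-like nuclei, 1 higher and 3 lower, where 15.8% of genes were, 7.75% higher and 8.05% lower. Among basal-like nuclei 2 were called, 1 in each direction, where 6.16% were, 2.98% higher and 3.18% lower.

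Erbb4 and Hbegf moved with age differently in the 2 lineages. Hbegf was lower in fetal class 9 at 54.1 and 46.7 than in adult progenitors at 114 and 81.0 (log2 -0.96, SE 0.17, adjusted p = 0.00054 by edgeR). Class 4 had 77.7 and 57.1 and adult basal nuclei 40.9 and 38.0 (log2 0.74, SE 0.28, adjusted p = 0.11). The basal-like value was 1.55 against adult class 8 alone (adjusted p = 0.033). Against adult class 1 alone it was not called, with levels of 67.5 ± 14.9 in class 4 and 52.7 ± 3.13 in class 1. The difference between the Hbegf age effects in the 2 lineages was 1.61 on the log2 scale (SE 0.30, adjusted p = 9.4e-06). For Erbb4 the change was -0.62 (SE 0.15, adjusted p = 0.0080, not called without fetal library 1 or adult library 2) among progenitor-like nuclei and 0.18 (SE 0.19) among basal-like nuclei. The basal-like value depended on the adult class. Against adult class 1 alone it was 0.87 and called (adjusted p = 0.0061 by edgeR). Against adult class 8 alone it was not called, and the class 8 level of 254 ± 11.95 lay above that of fetal class 4 at 199.8 ± 5.73. The difference between the age effects was 0.77 (SE 0.20, adjusted p = 0.0032). The Erbb4 difference was not called without the library block (adjusted p = 0.094), without fetal library 1 or without adult library 2, or under 3 other alternatives. Over all genes 6.08% differed between lineages in their age effect, 2.43% more positive and 3.64% more negative in basal-like nuclei.

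At the level of regions, Nrg1 had 78 distal regions that could be tested for stage, 32 of them higher and 1 lower in fetal nuclei, where 35.3% of all distal regions differed, 16.6% higher and 18.8% lower. With DESeq2 12 of the 78 were higher and 0 lower, against 8.83% and 11.4% of all distal regions. With 1 library left out the number higher was 28 of 77 without fetal library 1, 14 of 52 without fetal library 2, 16 of 87 without adult library 1 and 16 of 72 without adult library 2, where 14.9%, 11.8%, 11.06% and 12.85% of all distal regions were higher. At chr8:32310927-32311926, inside the gene, 37 and 161 reads came from fetal nuclei and 13 and 23 from adult nuclei (log2 2.97, SE 0.37, adjusted p = 4.4e-08 by edgeR). This region passed the filter on reads through fetal nuclei, so the count of higher regions is partly built in. Egfr had 2 higher and 11 lower of 35 distal regions tested. The region at chr11:16769226-16770225 had 8 and 59 fetal and 159 and 213 adult reads (log2 -1.96, SE 0.31, adjusted p = 3.9e-06), and the one at chr11:16895091-16896090 went the other way (log2 1.00, SE 0.32, adjusted p = 0.014). The Hbegf region at chr18:36496861-36497860 was higher in the fetus (log2 0.99, SE 0.34, adjusted p = 0.019). Areg had 0 higher and 7 lower of 11. At Areg the region past the gene had 0 and 19 reads in fetal nuclei and 108 and 97 in adult nuclei. It passed the filter on reads through adult nuclei, so the count of lower regions is partly built in. Among promoter regions, of which 21.5% differed with stage over the genome, 3 of 3 at Areg and 2 of 2 at Hbegf were lower in the fetus and none of the other 13 was called.

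Co-accessibility scores from Cicero, computed by the authors over all nuclei and so belonging to no library, linked regions whose openness rises and falls together across nuclei. Of 11545 scored pairs with an end in a member region, 155 reached a score of 0.25, or 1.34%, and 0.515% of all deposited lines did. The highest score from Areg was 0.479, between the region past the gene at 91149461 and the region at 91302958 on the Btc side, 153 kb away. The same Areg region scored 0.400 with the region at 91284987, 136 kb away, and 0.448 with one 31.2 kb away, before the start of Areg. All of these ends had more reads in mature luminal nuclei than in the other 2 adult lineages.

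For Nrg1 the 2 highest scores between regions at least 10 kb apart, 0.634 and 0.561, joined the region at 32218549 to those at 32109041 and 32264383, all inside the gene and all highest among adult lineages in basal nuclei. None of the 60 Nrg1 links at 0.25 left the regions assigned to the gene. The gene spans 1084 kb, and the region at 32218549, an end of many of these links, lies far inside it. The part of this span in the absence of links that leave the gene was not tested. Egfr reached 0.533 between its region at 16800125 and a region at chr11:16591080-16592079, 209 kb away and nearest to Sec61g, and 0.499 with the region at 16816821. Erbb4 had 1 link at 0.25, from its promoter to a region 332 kb away nearest to Ikzf2 (0.347). Hbegf had 20 links, the highest at 0.457. The Erbb3 window had 9, but 6 of them, with the highest score of 0.376, ended at the promoter region nearest to Pa2g4 at 128565517. The other 3 ended at 128567647, inside Erbb3, with scores up to 0.3725. Areg had 24, Btc 13 and Ereg 2, and Erbb2 and Epgn had none, with highest scores of 0.190 and 0.217.

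Other genes of the pathway were taken from a list of 35, all of them tested. Between mature luminal nuclei and progenitors 5 were higher and 12 lower, where 27.5% of all genes differed, 13.9% higher and 13.7% lower. Between basal nuclei and progenitors 8 were higher and 9 lower, against 27.3%, 15.0% higher and 12.3% lower. Between fetal classes 4 and 9 there were 6 higher and 2 lower, against 6.03%, 4.15% higher and 1.89% lower. Over all nuclei 7 were higher and 1 lower in the fetus, a total near the background of 22.2%, 11.3% higher and 10.9% lower. The median log2 change of the list was -0.14, -0.14, 0.11 and -0.0046 in these comparisons.

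Among the other ligands, Nrg2 and Nrg3, further neuregulins, were called higher in basal nuclei than in both luminal lineages, as Nrg1 was. Nrg2 had 319.9 and 315 normalised reads in basal, 112 and 95.8 in progenitor and 76.7 and 71.2 in mature luminal sums (log2 1.62 for basal over progenitor, SE 0.12, adjusted p = 5.6e-19 by edgeR). Nrg3 had 144 and 200.3 in basal and 64.3 and 126 in progenitor sums (log2 0.87, SE 0.14, adjusted p = 4.5e-07). Nrg4, another neuregulin, went the other way, with 63.1 and 81.5 in mature luminal, 11.4 and 16.8 in progenitor and 3.43 and 11.2 in basal sums (log2 2.37 for mature luminal over progenitor, SE 0.22, adjusted p = 7.4e-15). Tgfa, which encodes the Egfr ligand transforming growth factor alpha, was higher in basal nuclei than in progenitors at 160 and 141 against 99.5 and 85.9 (log2 0.70, SE 0.14, adjusted p = 2.9e-05), and higher in fetal than in adult nuclei at 179 and 217 against 108 and 98.3 (log2 0.94, SE 0.12, adjusted p = 0.00015).

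Of 12 inhibitors, 2 were higher and 4 lower in mature luminal nuclei than in progenitors, and of 8 adaptors and partners 0 were higher and 2 lower. Over all genes 27.5% differed, 13.9% higher and 13.7% lower. Among those named here, Errfi1, Lrig3, Cd44 and Gab1 were lowest in mature luminal nuclei. Errfi1, a feedback inhibitor of Egfr, had 212 and 226 normalised reads in progenitor, 115 and 119 in basal and 91.1 and 86.4 in mature luminal sums (log2 -1.31 for mature luminal over progenitor, SE 0.12, adjusted p = 4.7e-15 by edgeR). Lrig3, of the Lrig family of ErbB regulators, had 162 and 158 in basal, 67.5 and 59.5 in progenitor and 24.1 and 37.9 in mature luminal sums (log2 1.32 for basal over progenitor, SE 0.16, adjusted p = 1.2e-10). Cd44, a surface glycoprotein that can hold heparin-binding ligands, had 245 and 205 in basal, 177 and 174 in progenitor and 66.1 and 70.4 in mature luminal sums (log2 -1.36 for mature luminal over progenitor, SE 0.12, adjusted p = 3.0e-15). Grb7, an adaptor of Erbb2 whose gene is its neighbour on chromosome 11, had 22.3 and 14.4 in basal, 79.2 and 70.9 in progenitor and 84.4 and 83.3 in mature luminal sums (log2 -2.12 for basal over progenitor, SE 0.22, adjusted p = 3.2e-13). Gab1, a docking adaptor, had 371 and 382 in basal, 470 and 466 in progenitor and 284 and 284 in mature luminal sums (log2 -0.72 for mature luminal over progenitor, SE 0.096, adjusted p = 2.3e-09).

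Dusp6, a phosphatase that limits ERK signalling, was higher in fetal class 4 than in class 9 at 251.5 and 273.5 against 171 and 183 (log2 0.57, SE 0.14, adjusted p = 0.0036 by edgeR). Etv5, a transcription factor gene that responds to ERK signalling, was higher in fetal than in adult nuclei at 222 and 233 against 152 and 139 (log2 0.65, SE 0.10, adjusted p = 0.00066). Of the 6 response genes, 4 were lower and 0 higher in mature luminal nuclei than in progenitors, where 27.5% of all genes differed, 13.7% lower. In basal nuclei 2 were lower and 0 higher than in progenitors, near the 27.3% of all genes that differed, and 3 were higher and 1 lower than in mature luminal nuclei, against 37.6%. Between fetal classes 4 and 9 edgeR called 0 of them, with 1 at an unadjusted p under 0.05, where 6.03% of all genes were called, and with stage 2 were higher and 0 lower in the fetus, against 22.2%.

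Genes elsewhere in the genome whose levels were most like those of a member were found over the 30 sums of a class in a library. For Egfr these were Plxdc2 (Pearson r = 0.90), Cd44 (0.85) and Pakap (0.83), and for Areg they were Sipa1l3 (0.86), Tpd52 (0.85) and Zkscan6 (0.84). Nrg1 was most like Iqschfp (0.92), Schip1 (0.91) and Tnik (0.89). All lie on chromosome 3, and the genes found were not screened for overlap with each other. Erbb3 was most like Cldn3 (0.86), a tight junction gene and luminal marker, followed by Tet3 and Extl1 (0.84 each). Hbegf was most like 1110059E24Rik (0.85), followed by Cgnl1 (0.80) and Scly (0.76), and Erbb2 like Gipc1 (0.84), E2f2 and Enoph1 (0.82 each). Erbb4 was most like Mdga2 (0.89), Sntg1 (0.87) and Ppfia2 (0.84), and Btc like Gpr160 (0.89), Fam210b (0.87) and Tom1l1 (0.87). The likeness was lower for Ereg, with Igsf9b and Pdgfrl (0.70 each) and Cfap54 (0.68), and for Epgn, with Fermt2 (0.70), Pias2 (0.69) and LOC115488350 (0.69). These values describe sums that share libraries and depth.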

How the data were processed

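Per the submitters' processing notes, Bowtie2, MACS2, bedtools and build mm10 were used, with versions, cut-site shift and duplicate removal not given in the sources used here. The deposited files give read positions by barcode, 145453 distal and 19204 distinct promoter regions of 1000 bases, a class and a read count for each nucleus, and Cicero co-accessibility scores, which the authors computed over all nuclei. The deposited read count equalled the reads per barcode in all 7846 nuclei, and 7846 columns of gene scores that name no nucleus were not used. Each listed read was counted once. Reads were not joined into fragments. Where both ends of a fragment are listed as reads, a floor of 3 reads covers fewer fragments, and the fold bounds would be lower. No doublet caller was run, and any removal of doublets by the authors is not given in the sources used here.

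Reads were summed per library and class over gene spans plus 2 kb (RefSeq, GRCm38.p6) and over regions, and tested over all features with edgeR 4.0.16 in R 4.3.3 (quasi-likelihood test, TMM, mean of at least 10 reads, Benjamini-Hochberg adjustment); DESeq2 1.42.0 was an alternative. SE is the log2 change divided by the square root of F. Class comparisons carried the library as a block, because classes of 1 library share its animals and tagmentation; their deviations correlated at 0.229 to 0.312 in adult and 0.0906 in fetal sums. Stage had no block. The code was tested on simulated data.

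A region belonged to a member inside its window, or within 100 kb where the member was the nearest gene. A region open in 1 group alone could pass the filter on reads through that group, which favours counts in a single direction. All members are reported. Regions named by rule had the largest change in each direction among those called with a mean of at least 50 reads and no overlap; the other regions named were chosen after their values were seen. For likeness, log2(CPM + 2) was correlated over sums of at least 20 nuclei, for genes with a mean of at least 50 reads and over 1 Mb away. Pathway genes named were those called in the most tests. A marker counted as raised where its level exceeded the mean of the other classes by 0.5 on the log2 scale. Members and lists were chosen with earlier results of these data known. The promoter table held 6 of the 10 members, without Erbb3, Nrg1, Ereg and Hbegf. Alternatives covered the normalisation, window, counting rule, filter, tool, block, choice of classes and each library left out.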

Additional observations from a re-analysis of the deposited data

Results flagged for a closer look

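The effect of age on the Hbegf window differed between lineages. Fetal class 9 was below adult progenitor-like nuclei (log2 -0.96). Fetal class 4 was above adult basal-like nuclei in value (log2 0.74, not called). That value was 1.55 and called against adult class 8 alone. It was not called against adult class 1 alone, where the levels were 67.5 ± 14.9 in class 4 and 52.7 ± 3.13 in class 1. The interaction was 1.61 on the log2 scale (SE 0.30, adjusted p = 9.4e-06 by edgeR). It was called under every alternative run, but the 1 kb start-site window was not available for Hbegf. For Erbb4 the corresponding values were -0.62 and 0.18, with an interaction of 0.77 (SE 0.20, adjusted p = 0.0032 by edgeR). The basal-like value was 0.87 and called against adult class 1 alone. It was not called against adult class 8 alone, whose level of 254 ± 11.95 lay above that of fetal class 4 at 199.8 ± 5.73. The Erbb4 interaction was not called under 6 of the alternatives, among them classes 8, 3 and 11 alone (0.46, adjusted p = 0.47 by edgeR).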

How the results depend on the processing

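Of 32 calls for members in 80 tests, 17 held under every alternative run, and 63 changes of sign fell on differences that were not called. Not every call met every alternative. The 1 kb start-site window was not available for Erbb3, Nrg1, Ereg and Hbegf. Between classes of 1 stage, leaving out a library gave a direction but no test, and the call counted as held where the direction was kept. Shares in brackets are those of all genes, or of all regions, called under the same setting. Counting only within 1 kb of the start site, which covers 6 of the 10 members, left 1 member called for stage (22.2%), 1 for stage among progenitor-like (9.08%) and 0 among basal-like nuclei (0.492%), 2 for mature luminal over progenitor (9.51%), 2 for basal over progenitor (12%), 3 for basal over mature luminal (19.9%), 0 between fetal classes (0.0379%) and 0 for the difference in age effect (0.841%). There the Egfr change turned to 0.2433 for stage, -0.1429 for basal over progenitor and -0.1503 between fetal classes, and Erbb4 to -0.9795 for basal over progenitor. With classes 1, 7 and 2 alone, added after the data were seen, Erbb4 for basal over progenitor was -0.4662, and 4 members were called for stage among basal-like nuclei (10.7%). With classes 8, 3 and 11 alone there was 1 (1.14%), and 1 for the difference in age effect (1.01%). DESeq2 called 3 members for mature luminal over progenitor (15.2%), 1 for the difference in age effect (1.61%) and 40 of 193 regions for stage (19.4%). With a mean of at least 50 reads, which tests fewer regions, 23 of 55 regions were called for stage (43.7%), 6 of 20 for mature luminal over progenitor (23.5%), 9 of 20 for basal over progenitor (20.4%) and 0 of 6 between fetal classes (2.07%). The share of all features called moved with most of these settings, so the counts describe the settings as well as the members, and the cause was not tested. At a co-accessibility score of 0.1 there were 816 links.

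Leaving out each library in turn gave 2 to 5 members called for stage, against 4, and the share of all genes ran from 9.68% without fetal library 2 to 24.1% without adult library 2. It gave 47 to 75 regions called, against 77 of 193 (33.5%), with 47 of 165 without fetal library 2 (27.7%) and 50 of 178 without adult library 2 (26.5%). For the difference in age effect it gave 1 to 2 members, with 1 without fetal library 1 (4.08%) and 1 without adult library 2 (3.96%), against 6.08% with all libraries. Comparisons between classes of 1 stage have no residual degrees of freedom with 1 library, so no test was made there.

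Without the replicate block, 3 members were called for mature luminal over progenitor (19% of all genes, against 27.5% with it) and 1 for the difference in age effect (3.13%, against 6.08%). The labels do not pair fetal with adult libraries. Same-numbered sums deviated together at 0.292 over 16711 genes, with only 2 pairs, and with the replicate block 5 members were called for stage (34.1% of all genes, against 22.2% without it), Ereg in addition (-0.4863, adjusted p = 0.044 by edgeR). With 2 libraries a group and few reads in single regions, small differences could not be seen, and an uncalled difference does not show equality.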
